A study of Macaca mulatta with 6 samples.

Results

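Immediate early genes are the first genes that a cell transcribes after a stimulus, and most of their products are transcription factors that act on a later set of genes. FOS and JUN proteins pair through leucine zippers to form the AP-1 factor, EGR proteins bind GC-rich DNA through zinc fingers, and NR4A1 is an orphan nuclear receptor. Growth factors, neuronal activity, light and tissue injury induce these genes in neurons and glia of the retina, usually for a short time, and the phosphatase DUSP1 is induced with them and switches off the MAP kinases that drive them. The members were chosen as every probe set whose gene symbol in the platform annotation was FOS, FOSB, FOSL1, JUNB, EGR1, EGR2, EGR3, NR4A1, IER2 or DUSP1. Of these 10 genes, 6 had a probe set (FOS, JUNB, EGR2, NR4A1, IER2 and DUSP1), with 9 probe sets of 52024 in all, and FOSB, FOSL1, EGR1 and EGR3 were not analysed here.

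The treated retinas came from the side on which the intraorbital optic nerve of a rhesus macaque had been irradiated by gamma knife surgery at 15 Gy, and the control retinas from the other side of the same 3 animals, all taken after 24 h. The monkeys were males of 8 to 10 years, the temporal part of each retina was used, and the retinal pigment epithelium was left out. Eyeballs of the treated side took 3 Gy themselves and those of the control side 1 Gy, so both groups had been exposed, at different doses. Each of the 6 retinas was hybridized to 1 Affymetrix Rhesus Macaque Genome Array, and the values are log2 MAS 5.0 signals, so a difference of 1 is a doubling. The comparison was made in limma within pairs, a pair being the treated and the control retina that share a replicate number in the labels, and adjusted p-values are Benjamini-Hochberg values over the whole array. Levels of different genes depend on their probes and were not compared, and with 3 arrays per group all values are of limited precision.

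Array medians lay between 6.44 and 6.98 in treated retinas and between 6.69 and 7.03 in control retinas. Photoreceptor markers were bright in both groups, with summed linear signals of 153741 to 198774 in treated and 179314 to 213837 in control retinas over 8 measured genes. Summed signals of the photoreceptor, ganglion cell, Mueller glia, erythrocyte, endothelium and pericyte, pigment epithelium and lens lists overlapped between the groups. Those of the 3 other marker lists did not, and each lost this without its brightest gene. Astrocyte markers (4 of 5 measured) summed to between 6424 and 20429 in treated and between 2796 and 5408 in control retinas, and this rested on GFAP, since the other 3 summed to between 1258 and 3717 in treated and between 1167 and 3037 in control retinas. Blood leukocyte markers (7 of 11) lay between 4151 and 12400 in treated and between 2054 and 3714 in control retinas. The lack of overlap rested on LYZ, since the other 6 lay between 399 and 806 in treated and between 266 and 553 in control retinas. Microglia and macrophage markers (10 of 12) lay between 2946 and 3364 in treated and between 2509 and 2843 in control retinas, with 6 of the 10 above 0 and 4 below, and without CD68, the brightest, these sums overlapped as well. Of the retinal ganglion cell markers, 7 of 7 measured were above 0 and 5 had an unadjusted p under 0.05 in limma. Of the photoreceptor markers, 7 of 8 were below 0 and 3 had such a p. Mueller glia markers went both ways, with 4 of 7 measured above 0, and 2 higher and 3 lower at that p. Blood leukocyte markers were all above 0 (7 of 7 measured), with 3 higher and 0 lower at that p. Microglia and macrophage markers had 4 of 10 higher and 0 lower at that p. Among all named genes, 55.5% were above 0, and 5.02% were higher and 3.01% lower at that p. None of these markers was listed at 0, and the T cell markers CD3E and CD3D were not measured. The part of these cells in the results below was not tested, and in a whole retina more cells of a type and more RNA per cell cannot be told apart.

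Among the 6 measured genes, JUNB stood higher in treated retinas, NR4A1 stood lower, and FOS, IER2, DUSP1 and EGR2 differed by 0.12 to 0.23 on the log2 scale, each gene taken by its brightest probe set. None of the 9 probe sets passed an adjusted p of 0.05, which 0.111% of all probe sets did. At an unadjusted p under 0.05, limma gave 1 of 9 higher (JUNB) and 1 of 9 lower (NR4A1, by its brighter probe set), against 2.97% higher and 3.77% lower over the whole array. That is 1544 higher and 1962 lower probe sets as deposited, and 1845 and 1143 with each array centred on its median. The median log2 fold change of the 6 genes was 0.20, beside 0.03 over all 14132 named genes, and 5 of the 6 genes and 55.5% of all named genes were above 0. With each gene taken by its brightest probe set, the median of the 6 genes was 0.33 in pair 1, 0.45 in pair 2 and −0.28 in pair 3.

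JUNB encodes a JUN subunit of AP-1 and was measured by 1 probe set. Its log2 signal was 8.88, 8.83 and 9.08 in the treated retinas of pairs 1 to 3, and 7.74, 8.35 and 8.21 in the control retinas. All treated retinas lay above all control retinas, a pattern that 3.11% of all probe sets had. Linear signals were 471.4, 454.3 and 540.7 in treated retinas and 213.9, 326.0 and 296.7 in control retinas. The treated retinas were also the more alike, at 8.93 ± 0.13 against 8.10 ± 0.32 in control retinas (SD, n = 3 each). JUNB was 1.78 times as high in treated as in control retinas (95% interval 1.33 to 2.37), with a log2 fold change of 0.83 ± 0.18 (SE, unadjusted p = 0.00188 and adjusted p = 0.388 from limma). It was higher in 3 of 3 pairs, as 13.0% of all probe sets were. The difference was 1.14 in pair 1, 0.48 in pair 2 and 0.87 in pair 3. The methods' t-test, which put 2.68% of all probe sets higher at an unadjusted p under 0.05, gave JUNB a p of 0.0497 before and 0.879 after adjustment. Without replicate 2, where the difference was smallest, JUNB passed the adjusted threshold (log2 fold change 1.00, adjusted p = 0.0244 from limma), and in every other alternative run it did not (adjusted p from 0.192 to 1.00), while its unadjusted p stayed under 0.05 in all 11. GFAP also stood higher in treated retinas by its brightest probe set (adjusted p = 0.0303 from limma). The other GFAP probe set had overlapping groups and a log2 fold change of 0.10 (adjusted p = 0.893 from limma). LYZ stood higher in treated retinas without passing the adjusted threshold (adjusted p = 0.0745 from limma). No measured marker of the microglial, ganglion cell, Mueller glia or photoreceptor lists passed it. The part of any of these markers in the JUNB difference was not tested.

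**Figure D1:**
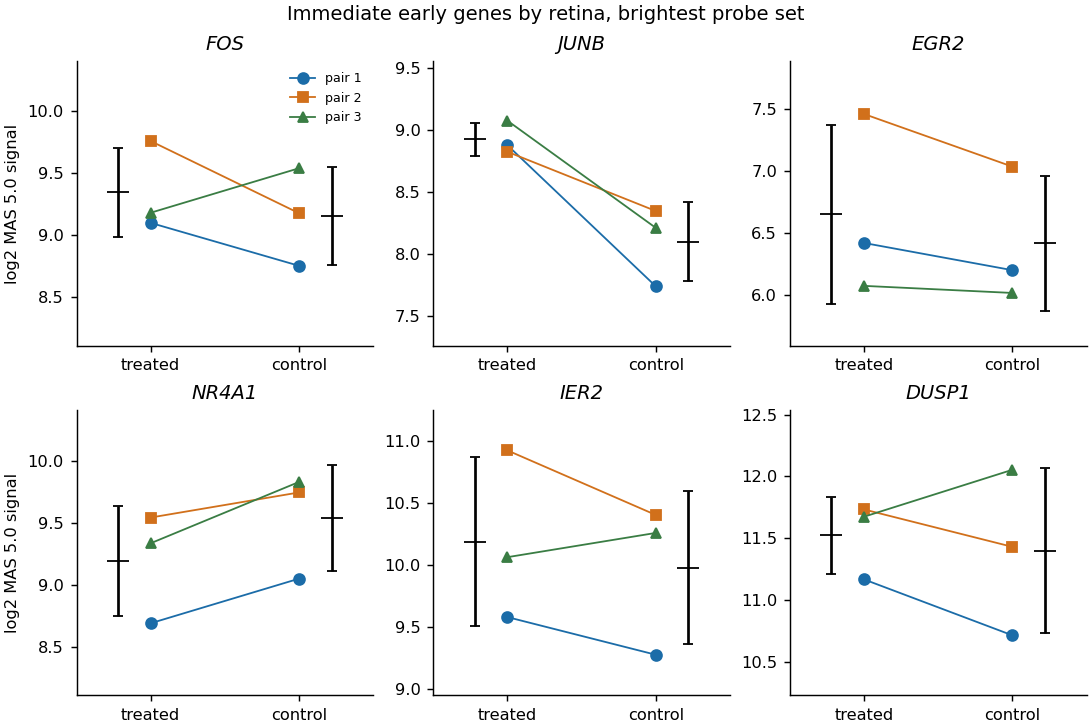
Log2 MAS 5.0 signal (vertical axes, each spanning the same width) of the brightest probe set of each measured gene in treated and control retinas, with a line joining the retinas of a pair and black bars for the group mean ± SD. JUNB is the one panel in which all treated retinas (8.83 to 9.08) lie above all control retinas (7.74 to 8.35).

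NR4A1 encodes the nuclear receptor also known as NUR77, which acts without a known hormone ligand. Its brighter probe set gave 8.69, 9.54 and 9.34 in the treated retinas of pairs 1 to 3, and 9.05, 9.75 and 9.83 in the control retinas. Each treated retina lay below its own control retina, although the groups overlapped. The lower value was seen in 3 of 3 pairs, as for 16.1% of all probe sets, with differences of −0.36, −0.20 and −0.50. The treated level was 0.783 of the control level (95% interval 0.640 to 0.957), a log2 fold change of −0.35 (SE 0.12, unadjusted p = 0.0233 and adjusted p = 0.716 from limma). A second probe set of NR4A1 gave 9.04, 9.45 and 8.85 in treated retinas and 9.20, 9.53 and 9.84 in control retinas. It too was lower in 3 of 3 pairs (log2 fold change −0.41, SE 0.19, adjusted p = 0.751 from limma), and most of that difference came from pair 3 (−0.99). Both carry the same number in their identifiers and are not independent readings, and their signals had a Pearson's r of 0.75 over the 6 retinas. The direction was the same in all 11 alternatives, with log2 fold changes from −0.43 to −0.26, but the unadjusted p lay under 0.05 in 5 of them. With no replicate block the unadjusted p of NR4A1 was 0.280 in limma, and with arrays centred on their medians it was 0.173.

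**Figure D2:**
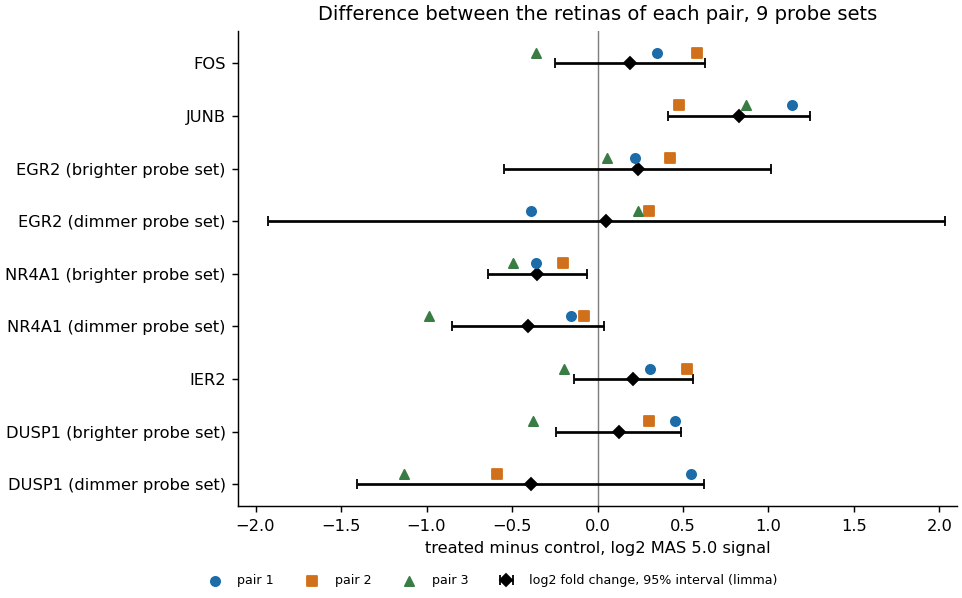
Treated minus control log2 signal of the 9 probe sets, with colored symbols for the 3 pairs and black diamonds for the log2 fold change with its 95% interval from limma. The intervals of JUNB (0.41 to 1.24) and of the brighter NR4A1 probe set (−0.64 to −0.06) leave out 0, and the other 7 include it.

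FOS encodes the AP-1 subunit that pairs with JUN proteins. Its log2 signal was 9.10, 9.76 and 9.18 in the treated retinas of pairs 1 to 3, and 8.75, 9.18 and 9.54 in the control retinas. The groups overlapped, since FOS was higher in the treated retina of pairs 1 and 2 (by 0.35 and 0.58) and lower in that of pair 3 (difference −0.36). The log2 fold change was 0.19 (SE 0.19, adjusted p = 0.840 from limma), and its interval for the treated over control level ran from 0.842 to 1.55. FOS reversed its sign when pair 2 was left out (log2 fold change −0.01).

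IER2, an early gene whose product is found in the nucleus, had the same order of pairs as FOS. Its log2 signal was 9.58, 10.92 and 10.06 in the treated retinas of pairs 1 to 3, and 9.27, 10.40 and 10.26 in the control retinas. It was higher in the treated retina of pairs 1 and 2 (by 0.30 and 0.52) and lower in that of pair 3 (difference −0.20). The log2 fold change was 0.21 (SE 0.15, adjusted p = 0.783 from limma), with an interval of 0.910 to 1.47 for the treated over control level.

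DUSP1, a dual-specificity phosphatase that inactivates the MAP kinases ERK, JNK and p38, gave 11.17, 11.73 and 11.67 in the treated retinas of pairs 1 to 3 by its brighter probe set, and 10.72, 11.43 and 12.05 in the control retinas. It also stood higher in treated retinas of pairs 1 and 2 (by 0.45 and 0.30) and lower in that of pair 3 (difference −0.38). The log2 fold change was 0.12 (SE 0.16, adjusted p = 0.881 from limma), with an interval of 0.846 to 1.40 for the treated over control level. The dimmer probe set of DUSP1 gave 7.76, 5.13 and 5.67 in treated retinas and 7.22, 5.71 and 6.80 in control retinas. Its log2 fold change was −0.39 (SE 0.44, adjusted p = 0.860 from limma), and it did not follow the brighter one across the 6 retinas (Pearson's r −0.51). With both probe sets averaged, DUSP1 stood at −0.13, so its direction rests on the probe set chosen, and it also turned without replicate 1 (−0.04).

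Pair 3 was the only pair in which FOS, IER2 and the brighter DUSP1 probe set were lower in the treated retina. Leaving it out therefore had to raise their differences. Without replicate 3 their log2 fold changes were 0.46, 0.41 and 0.38 (unadjusted p = 0.0262, 0.0216 and 0.0181 and adjusted p = 0.470, 0.455 and 0.434 from limma). That fit rests on the remaining pairs only. At an unadjusted p under 0.05 it put 1746 probe sets of the whole array higher and 3122 lower, against 1544 and 1962 with all pairs. Whether pair 3 differed from the other pairs was not tested.

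EGR2, the zinc finger factor also called KROX20, had a log2 signal of 6.42, 7.46 and 6.07 in the treated retinas of pairs 1 to 3, and of 6.20, 7.04 and 6.02 in the control retinas. The groups overlapped, although each treated retina stood above its own control, by 0.22, 0.43 and 0.06. The log2 fold change was 0.23 (SE 0.34, adjusted p = 0.897 from limma), and the interval of 0.684 to 2.02 for the treated over control level was the widest among the 6 genes. The second probe set of EGR2 stayed between 2.01 and 2.54 on all 6 arrays, below a log2 signal of 5, and its log2 fold change of 0.05 had an SE of 0.85.

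The spread between pairs was compared with the difference between treated and control retinas. The mean of both retinas of a pair spanned 1.24 between the lowest and the highest pair for IER2, 1.20 for EGR2, 0.92 for DUSP1, 0.77 for NR4A1, 0.54 for FOS and 0.34 for JUNB. This range exceeded the size of the log2 fold change in 5 of the 6 genes, JUNB being the exception, a share close to the 86.6% of all named genes in which it did so. Pair 1 had the lowest mean in 5 of the 6 genes, all but EGR2, as it had in 40.4% of named genes. Its control retina was the lowest of all 6 retinas for FOS, JUNB, IER2 and DUSP1, while for NR4A1 its treated retina was. The median range between pairs was 0.85 for the 6 genes and 0.59 for all named genes. Within a group, the median SD was 0.40 in treated and 0.49 in control retinas for the 6 genes, beside 0.36 and 0.33 for all named genes.

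**Figure D3:**
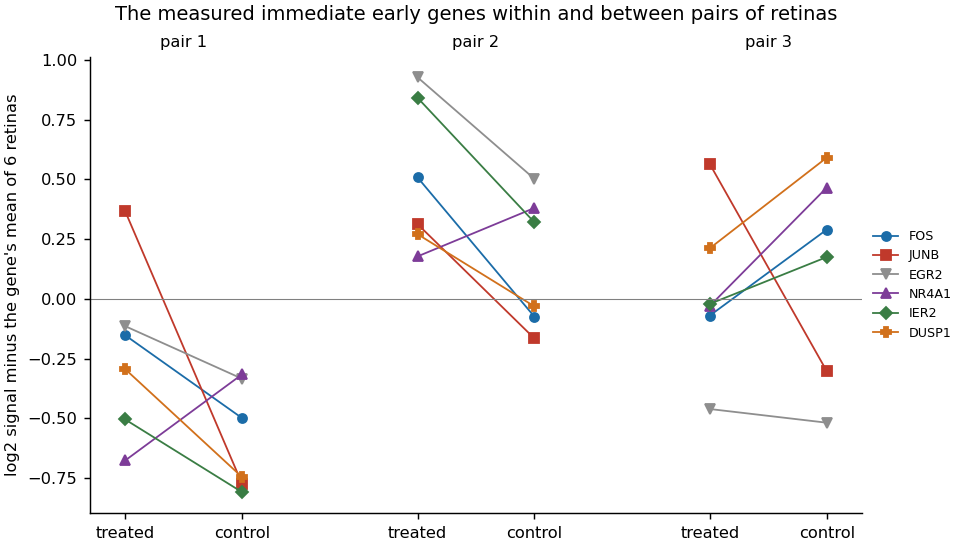
Log2 signal of each measured gene minus its own mean of the 6 retinas (vertical axis), with the treated retina left of the control retina in each pair. Both retinas of pair 1 lie below the gene mean for FOS, EGR2, NR4A1, IER2 and DUSP1, and JUNB falls to the right in all 3 pairs.

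With each gene taken by its brightest probe set, FOS, IER2 and DUSP1 followed each other most closely across the 6 retinas. The dimmer probe set of DUSP1, not used here, had an r of −0.51 with the brighter one. Pearson's r was 0.90 between FOS and IER2, 0.86 between FOS and DUSP1 and 0.77 between IER2 and DUSP1. NR4A1 followed IER2 (r 0.74) and DUSP1 (r 0.72) and, less closely, FOS (r 0.60). Over the 6 retinas JUNB stood apart, with r of 0.42 with FOS, 0.42 with DUSP1 and 0.39 with IER2, and −0.15 with NR4A1. EGR2 was nearest to IER2 (r 0.69) and had an r of 0.08 with DUSP1. Of the 15 pairs of genes, 5 had an r over 0.7 and 1 had an r below 0 across the 6 retinas. Over the means of both retinas of each pair, which are few points, JUNB did not stand apart from most of the others. Its r there was 0.94 with FOS, 0.99 with DUSP1, 0.97 with NR4A1, 0.84 with IER2 and 0.15 with EGR2. These values describe 6 arrays that share animals and scaling, and the retinas of a pair are not independent points.

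The mean pattern of the 6 genes lay at −0.23, 0.51 and 0.03 around its own mean in the treated retinas of pairs 1 to 3, and at −0.58, 0.15 and 0.12 in the control retinas. Of 9226 other named genes with a mean log2 signal of 7 or more, the 8 most like it were MED30, a subunit of the Mediator complex, LOC699732, MDH1, the cytosolic malate dehydrogenase, POLR3F, a subunit of RNA polymerase III, ZNF711, PCDHB5, LOC718588 and ELP5, with Pearson's r from 0.990 to 0.999 over the 6 arrays. Their own log2 fold changes lay between 0.04 (MDH1) and 0.19 (POLR3F). These genes were ranked by likeness alone, and no p-value was computed.

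Related genes were described from 6 further lists with 91 genes, of which 73 were measured. Of the 73, 1 passed the adjusted threshold (KLF6, a call lost in most alternatives), an unadjusted p under 0.05 was reached by 8 higher and 3 lower genes, and the median log2 fold change was 0.05. Among named genes as a whole, 5.02% were higher and 3.01% lower at that p.

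The other AP-1 and small bZIP factors had 10 of 11 genes measured, with a median log2 fold change of 0.17, and an unadjusted p under 0.05 was reached by 2 higher and 0 lower genes. MAFF, a small MAF protein, gave 8.47, 8.39 and 6.99 in the treated retinas of pairs 1 to 3 and 7.51, 7.87 and 6.37 in the control retinas (log2 fold change 0.70, SE 0.22, adjusted p = 0.676 from limma). BATF3, a partner of JUN proteins in blood cells, gave 7.01, 5.64 and 5.79 in treated retinas and 6.03, 4.10 and 3.37 in control retinas (log2 fold change 1.65, SE 0.57, adjusted p = 0.716). Like JUNB, both were higher in 3 of 3 pairs, yet their groups overlapped, and 2 of the BATF3 control values lay below a log2 signal of 5. JUND, another JUN subunit, stood at 0.05 (SE 0.69), and JUN itself was not measured.

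Among the relatives of EGR2 and NR4A1, EGR4, NR4A2 and the EGR corepressor NAB1 were the 3 of 5 measured, with 0 past an unadjusted p of 0.05. NR4A2, a receptor of the same family as NR4A1, had a log2 signal of 10.39, 10.67 and 10.33 in the treated retinas of pairs 1 to 3 and of 10.33, 10.68 and 10.48 in the control retinas. Its log2 fold change was −0.03 (SE 0.10, adjusted p = 0.958 from limma), and its 5 probe sets ranged from −0.08 to 0.08. The difference between NR4A1 and NR4A2 was not tested.

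Of the other immediate early genes, 19 of 24 were measured, 3 higher and 2 lower ones reached an unadjusted p under 0.05, and the median log2 fold change was 0.20. KLF6, a zinc finger factor induced by injury, was higher in treated retinas, with 11.55, 11.70 and 11.34 in pairs 1 to 3 against 10.87, 10.68 and 10.51 in control retinas (log2 fold change 0.84, SE 0.10, adjusted p = 0.0450 from limma). It has 6 probe sets, all above 0 and between 0.12 and 0.84, of which 1 passed. The direction was the same in all 11 alternatives, but KLF6 passed the adjusted threshold in 3 of them only, with adjusted p = 0.903 with no replicate block, 0.0774 with arrays centred on their medians, 0.309 without replicate 1 and 0.879 by the methods' t-test. The other genes with an unadjusted p under 0.05, named after their values were seen, were CCN1, a secreted matrix protein (log2 fold change 0.91, adjusted p = 0.599), IER5 (0.35, adjusted p = 0.716), ZFP36, which destabilizes the mRNA of cytokines and early genes (−0.48, adjusted p = 0.644), and the kinase SGK1 (−0.28, adjusted p = 0.730). The dimmer probe set of IER5 went the other way (−0.23), and the mean of its probe sets stood at 0.06. The unadjusted p of SGK1 lay under 0.05 in 4 of 11 alternatives, and with arrays centred on their medians it was 0.281 in limma.

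Genes that neuronal activity induces were all measured (12 of 12), with 3 higher and 0 lower ones past an unadjusted p of 0.05 and a median log2 fold change of 0.09. The neurotrophin BDNF was higher by 1.13 on the log2 scale in its brightest probe set, with an SE of 0.25 and an adjusted p of 0.391 in limma, and its other probe sets, which were dim, gave −0.82 and 0.36. In the authors' qRT–PCR, BDNF was not higher in the treated retina of every monkey. The authors reported that qRT–PCR and array differed for genes with several probe sets. NPTX2, a secreted pentraxin of synapses, stood at 0.40 (adjusted p = 0.676), and VGF, a precursor of neuropeptides, at 0.30 (adjusted p = 0.716). ARC and NPAS4, both induced by synaptic activity, had log2 fold changes of 0.85 (SE 0.82) and −0.09 (SE 0.48).

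Of the phosphatases and Sprouty proteins that, like DUSP1, dampen MAP kinase signalling, 11 of 14 were measured and 0 passed an unadjusted p of 0.05, with log2 fold changes from −0.44 to 0.14. Of the kinases and transcriptional regulators upstream of the immediate early genes, 18 of 25 were measured, and 0 higher and 1 lower reached an unadjusted p under 0.05. That gene was MAPK3, the kinase ERK1, at −0.25 (SE 0.09, adjusted p = 0.730 from limma). The unadjusted p of MAPK3 lay under 0.05 in 5 of 11 alternatives, and with arrays centred on their medians it was 0.345 in limma. The median of this list was 0.003.

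**Figure D4:**
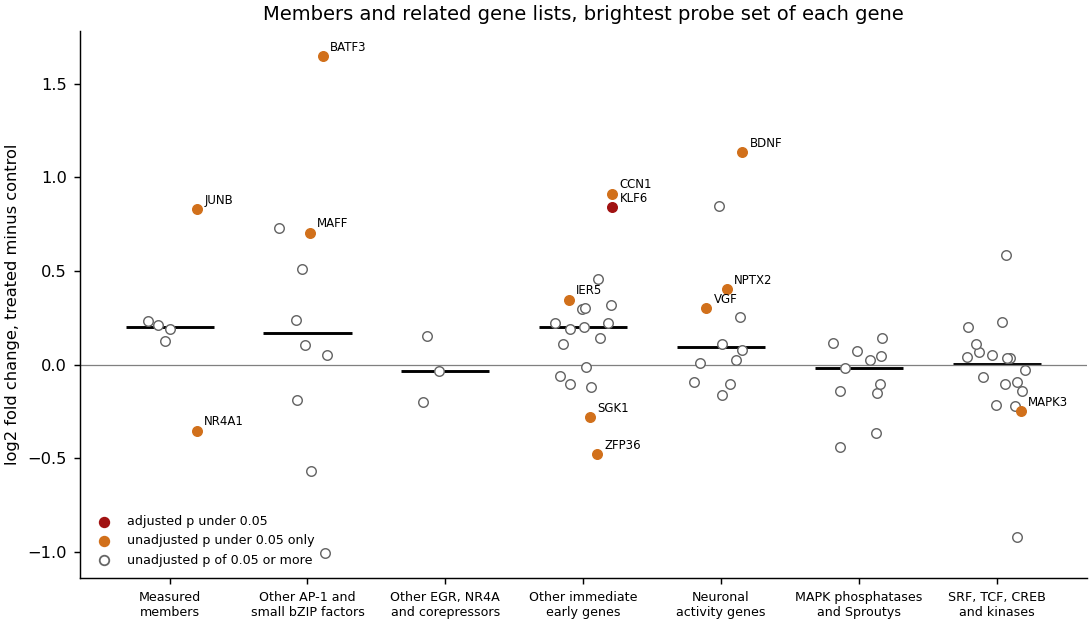
Log2 fold change, treated minus control, of the 6 measured members and of 73 genes in 6 related lists (vertical axis, with the lists side by side), each by its brightest probe set, with black lines for medians and colors for the limma p. KLF6 is the one gene past the adjusted threshold, which it passed in 3 of 11 alternatives, and the median of the members (0.20) is close to that of the other immediate early genes (0.20).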

How the data were processed

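The deposited log2 values are MAS 5.0 signals that the authors computed per probe set in GeneSpring from 1 array per retina. How MAS5 scaled the arrays was not given in the sources, and present or absent calls were left aside. For each of the 52024 probe sets, a treated minus control difference was fitted in limma (version 3.58.1, under R 4.3.3) by lmFit and a trended eBayes, the replicate number being a block, with Benjamini-Hochberg adjustment, 95% intervals from the moderated standard error and no filter. The methods pair both retinas of a monkey, and array deviations from group means correlated within replicate numbers (r 0.357, 0.137 and 0.161). The highest r of each treated retina with a control retina of another number was −0.148, 0.104 and 0.019. The margin was thus small for replicate 2. The methods' t-test was run on the same pairs. Members were matched by platform symbol, of which 24956 probe sets had 1, 361 had several and 26707 had none. Other genes were named through that annotation, updated by gene identifier (98.6% of probe sets with 1 symbol were found in the RefSeq table of T2T-MMU8v2.0), and each is given by its brightest probe set on average. Named genes were all members, list genes past the adjusted threshold or else up to 3 past an unadjusted p of 0.05, and the 8 genes most like the members, and any other gene was named after its values were seen. Members and lists were chosen with earlier results of these data known. The fitting script was tested on simulated data. Plots were made in Python 3.11.15 (matplotlib 3.10.9). The alternatives were other normalizations, fits with no replicate block or no trend, a filter and a floor on dim signals, the mean of a gene's probe sets, and each replicate left out in turn.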

Additional observations from a re-analysis of the deposited data

How the results depend on the processing

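Among the alternative values of the 6 genes, 62 kept their direction and their side of the adjusted threshold. JUNB passed without replicate 2, and 3 turned: DUSP1 ranged from −0.039 to 0.38 when 1 replicate was left out and stood at −0.13 as the mean of its probe sets, and FOS ranged from −0.0064 to 0.46. KLF6 kept its direction, with log2 fold changes from 0.48 to 0.94, and passed the adjusted threshold in 3 of 11 alternatives (adjusted p from 0.000919 to 0.903), and the other list genes with an unadjusted p under 0.05 also kept theirs. The count of member probe sets with an unadjusted p under 0.05 was 2, and it was 1 (JUNB) with no replicate block, with arrays centred on their medians, with no trend in the variance prior and by the methods' t-test, and 1 without replicate 1, 3 without replicate 2 and 4 without replicate 3. After adjustment it was 0, and 0 or 1 when 1 replicate was left out. Over all probe sets, 58 passed after adjustment, 0 did so with no replicate block, with no trend, with signals below log2 5 set to 5 or by the methods' t-test, and 17, 222 and 135 did so without replicates 1, 2 and 3. At an unadjusted p, 3506 passed, 1275 with no replicate block and 2210, 3808 and 4868 without replicates 1, 2 and 3. Centring the arrays raised the median of all probe sets by about 0.1, from −0.04 to 0.06. The cause of these changes was not tested.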

Other observations

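ATF3, a stress-induced bZIP factor that can pair with JUN proteins, was looked at after its values were seen, because its probe sets moved in opposite directions. The brightest gave 7.01, 6.31 and 7.28 in the treated retinas of pairs 1 to 3 and 7.58, 7.34 and 7.39 in the control retinas (log2 fold change −0.57, SE 0.29, adjusted p = 0.752 from limma), so that all treated retinas lay below all control retinas. The dimmest gave 5.98, 5.90 and 6.18 in treated retinas and 5.17, 3.97 and 3.50 in control retinas (log2 fold change 1.81, SE 0.63, adjusted p = 0.716), so that all treated retinas lay above, with 2 of the control values below a log2 signal of 5. Of all probe sets, 3.11% had every treated retina above every control retina, and the share with the opposite order was not counted. The third stood at 0.32 (SE 0.37). FOSL2, a FOS subunit with 2 probe sets, had log2 fold changes of 0.51 (SE 0.40) and −0.07 (SE 0.83).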
